A study of Mus musculus with 7 samples.

Results

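The nuclear factor I (NFI) genes Nfia, Nfib, Nfic and Nfix were examined in RNA-seq of lymphoma cell lines that had or lacked Smchd1, a chromatin protein with roles in gene silencing. The 4 genes were found by matching the Entrez identifiers of the count tables to their mouse symbols, with no filter on low counts, and made up 4 of 27179 genes measured. They were chosen with the difference between wild-type and Smchd1 null lines already known, so their values in that contrast are given as a description and without a test. Every line was grown from an end-stage lymphoma of a male C57BL/6 mouse carrying the Eµ-Myc transgene, which places Myc under an immunoglobulin heavy chain enhancer and gives rise to B cell tumours. The wild-type group held 3 samples and the Smchd1 null group held 4. The labels number them as replicates and do not say whether each is a separate line. Each sample is called a line below. The labels call the null lines homozygous for a Smchd1 gene trap, whereas the methods of the study write the allele as MD1. The age of the mice was not given, and the labels do not say that the lines came from separate mice, so the p-values below measure the spread between these samples.

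NFI proteins are transcription factors that bind DNA as dimers, homodimers or heterodimers of family members, through a shared amino-terminal domain. They recognise a palindrome, made of the half-site TTGGC, a gap of 5 bases and the reverse complement GCCAA, and more weakly the half-site alone, and can activate or repress a gene. In mice they are known from the development of brain, lung, muscle, teeth and blood, where Nfia and Nfix act in blood progenitors and Nfib in lung and forebrain.

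Facts about the libraries bear on what follows. Total counts ranged from 3626853 in wild-type replicate 1 to 7519549 in null replicate 4. Wild-type replicate 1 was the only library of batch 1 and the only single-end library. Wild-type replicates 2 and 3 were much more alike than any other pair within a group. Their chi-square per degree of freedom over genes was 3.96, against 18.1 to 64.9. They still differed by more than sampling noise and were kept as separate samples, also in every wild-type SD. That difference does not show that they came from separate lines. Smchd1 itself measured 232 ± 14.8 CPM (the count scaled to a common library total; SD, n = 3) in wild-type and 26.5 ± 2.85 CPM (SD, n = 4) in null lines, a log2 fold change of -3.16 (SE 0.11, limma FDR 2.18e-05, exact two-sided permutation p = 0.0286, the smallest possible). The 10 B cell markers summed to between 517 and 2116 CPM in every library. The lowest sum was that of null replicate 4. None of the lists of T cell, NK, myeloid, endothelial, fibroblast, epithelial, neural and glial or erythroid markers separated the groups.

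Windows of 300 bases around annotated starts, from 250 bases before to 50 after, differed in CpG content between genes and also among those of Nfix. CpG is the dinucleotide at which mammalian DNA is methylated. The windows are RefSeq sequences on GRCm38.p6, the mm10 build of the count tables. There were windows for 3 of the 4 genes, 6 in all, and none for Nfib. The 3 printed are the first listed for each gene, 5′ to 3′ on the gene's strand, with every CpG in capitals. Each printed window lies inside the annotated span of its gene. The Nfia window lies at chr4:97581693-97581992 (plus strand), the Nfic window at chr10:81427124-81427423 (minus strand) and the Nfix window at chr8:84780033-84780332 (minus strand).
Nfia: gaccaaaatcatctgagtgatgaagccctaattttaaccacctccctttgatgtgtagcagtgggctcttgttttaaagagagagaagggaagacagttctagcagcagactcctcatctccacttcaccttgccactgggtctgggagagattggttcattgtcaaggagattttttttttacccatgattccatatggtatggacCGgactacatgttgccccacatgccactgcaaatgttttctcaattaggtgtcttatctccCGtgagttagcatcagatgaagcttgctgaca
Nfic: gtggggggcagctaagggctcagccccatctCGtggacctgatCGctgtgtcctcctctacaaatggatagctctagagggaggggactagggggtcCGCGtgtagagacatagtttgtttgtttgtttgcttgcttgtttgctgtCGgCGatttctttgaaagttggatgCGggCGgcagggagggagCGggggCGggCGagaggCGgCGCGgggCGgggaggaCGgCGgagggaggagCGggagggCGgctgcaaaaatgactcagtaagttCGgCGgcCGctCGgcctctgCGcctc
Nfix: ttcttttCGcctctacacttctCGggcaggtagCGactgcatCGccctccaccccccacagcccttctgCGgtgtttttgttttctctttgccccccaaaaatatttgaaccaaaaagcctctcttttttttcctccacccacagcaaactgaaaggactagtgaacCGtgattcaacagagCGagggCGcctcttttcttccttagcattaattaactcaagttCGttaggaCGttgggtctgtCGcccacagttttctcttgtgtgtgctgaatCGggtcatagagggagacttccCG
The Nfic window held 24 CpG dinucleotides, the Nfix window 13 and the Nfia window 2, against a median of 7 over 32851 promoters. The other 3 Nfix windows held 4, 9 and 2. None of the 6 windows contained the palindrome, which occurred in 12 promoters (0.0365%). The half-site TTGGC, searched on both strands, was in none of the 3 printed windows and in each of the other 3 Nfix windows, and 46.7% of all promoters held it. The half-site forms each end of the palindrome, so the searches overlap. These matches describe letters in the windows and say nothing about binding.

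Nfib was the one family member that was silent in one group and expressed in the other. Nfib (Entrez 18028, chromosome 4, 82290173 to 82506751, gene length 8770 bases) had 0 counts in all 3 wild-type libraries. It had 347, 326, 238 and 373 counts in null replicates 1 to 4. In CPM these were 51.4, 52.4, 36.8 and 49.6, a mean of 47.5 ± 7.27 (SD, n = 4). The groups did not overlap, and the level in the null lines stood far above the levels that a count of 0 allows. With exact Poisson 95% limits, which cover counting error only, the 0 counts allowed at most 1.02, 0.605 and 0.541 CPM in wild-type replicates 1 to 3. Taking 3 counts over the wild-type group as the floor, 0.181 CPM, the pooled level of the null lines was at least 263-fold higher, and that of the lowest null line at least 203-fold higher. Within batch 2, without wild-type replicate 1, the bound was at least 205-fold. The fitted log2 fold change of 9.24 (SE 0.48) depends on the offset given to counts of 0 and is no bound.

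Nfia and Nfix, in contrast, were expressed in every line. Nfia (Entrez 18027, chromosome 4, 97578066 to 98118876, 9643 bases), which takes part in gliogenesis and in the choice between erythroid and myeloid fate, had 33, 121 and 146 counts in wild-type replicates 1 to 3 and 115, 92, 62 and 76 in null replicates 1 to 4. Its levels were 9.10, 19.8 and 21.4 CPM in wild-type lines and 17.0, 14.8, 9.58 and 10.1 CPM in null lines. The groups overlapped, with the batch 1 library the lowest of all 7. The fitted log2 fold change was -0.57 (SE 0.22), and it was -0.60 within batch 2 but -0.06 without wild-type replicate 3 and -0.15 without wild-type replicate 2.

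Nfix (Entrez 18032, chromosome 8, 84704712 to 84801238, 3905 bases), which acts in muscle and in blood stem and progenitor cells, had higher counts than Nfia and Nfic in 6 of 7 libraries, all but null replicate 4. It had 136, 295 and 313 counts in wild-type replicates 1 to 3 and 430, 414, 235 and 204 in null replicates 1 to 4. The levels were 37.5, 48.4 and 45.9 CPM, and 63.7, 66.5, 36.3 and 27.1 CPM in the same order. The null lines lay on both sides of the wild-type lines, 2 above and 2 below. The log2 fold change of 0.20 (SE 0.22) changed sign without null replicate 1 (-0.13) or null replicate 2 (-0.17). In RNA from a whole culture, fewer cells expressing a gene and less RNA per cell cannot be told apart for any of these values.

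Nfic (Entrez 18029, chromosome 10, 81396191 to 81431919, 6295 bases), best known from tooth root development, was set apart by 1 line. It had 43, 77 and 113 counts in wild-type replicates 1 to 3, and 119, 79, 120 and 541 in null replicates 1 to 4. Its levels were 11.9, 12.6 and 16.6 CPM in wild-type lines and 17.6, 12.7, 18.5 and 71.9 CPM in null lines. Null replicate 4, the line with the lowest B cell marker sum, was 4.42 times the mean of the other 3 null lines, which was 16.3 ± 3.14 CPM (SD, n = 3) against 13.7 ± 2.52 CPM (SD, n = 3) in wild-type. The log2 fold change was 0.27 (SE 0.32) with sample weights, 0.09 without null replicate 4, and 0.81 with voom alone. DESeq2 gave 1.14 and edgeR 1.13, and neither weights samples. Whether the low B cell marker level of null replicate 4 has a part in its Nfic level was not tested.

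**Figure D1:**
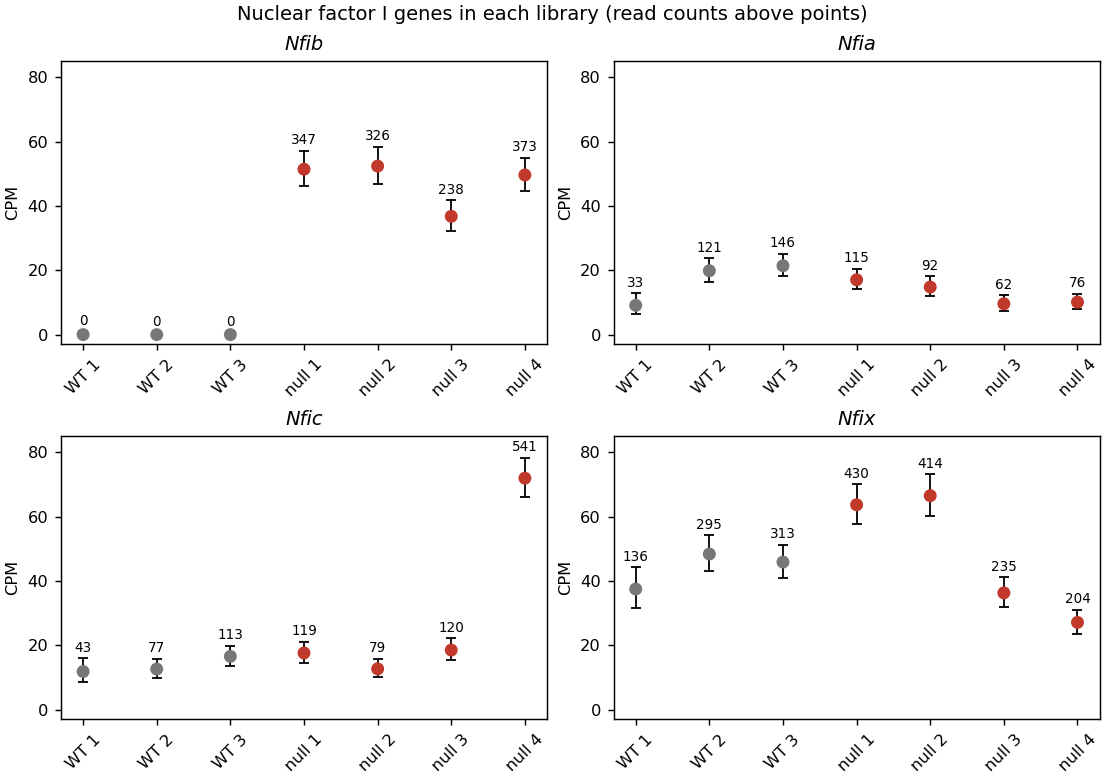
Level of each NFI gene in CPM (vertical axes, linear) in the 3 wild-type and 4 Smchd1 null libraries, with a point per library. Bars are exact Poisson 95% limits of each library, which cover counting error only and are not the spread between lines. Nfib was at 0 in the wild-type lines and between 36.8 and 52.4 CPM in the null lines, whereas Nfia and Nfix overlapped between groups and Nfic reached 71.9 CPM in null replicate 4.

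Of the 4 genes, 1 (Nfib) did not overlap between groups, where 13.2% of the 12303 retained genes did not and 6.35% lay higher in every null line. Nothing is read from this count, because the family was chosen on the contrast that it uses. All 4 genes passed the filter of at least 0.5 CPM in 3 samples, Nfib through its null lines alone.

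Levels can be compared between genes only per length, here as CPM divided by gene length in kilobases (RPKM). In wild-type lines Nfix was the highest member in 3 of 3, at 9.60, 12.4 and 11.7 RPKM, and made up 74.4% ± 3.32 (SD, n = 3) of the summed family level. Nfic (1.88, 2.01 and 2.63 RPKM) and Nfia (0.944, 2.06 and 2.22 RPKM) followed, and these neighbours did not differ beyond their spread, with Nfia the higher in 1 of 3 lines. In null lines Nfib, at 5.86, 5.97, 4.19 and 5.66 RPKM in replicates 1 to 4, was below Nfix in 4 of 4 and above Nfia in 4 of 4. Nfix was at 16.3, 17.0, 9.29 and 6.95 RPKM, so that the ratio of Nfib to Nfix ran from 0.351 to 0.814. Nfib exceeded Nfic in 3 of 4 lines, the exception being null replicate 4, where Nfic, at 11.4 RPKM, was also above Nfix. Nfia was the lowest member in 4 of 4 null lines.

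The summed level of the family was 15.2 ± 2.37 RPKM (SD, n = 3) in wild-type lines and 23.9 ± 4.41 RPKM (SD, n = 4) in null lines. Without Nfib, the null lines had 18.5 ± 3.58 RPKM and ranged from 13.2 to 20.9, which overlapped the wild-type range of 12.4 to 16.6. Nfib took a nearly even share of the family level in the null lines, at 21.9%, 22.5%, 24.1% and 22.6% in replicates 1 to 4, a mean of 22.8% ± 0.914 (SD, n = 4). The share of Nfix was far less even, at 61.0%, 64.1%, 53.3% and 27.7%, and the share of Nfic was 45.6% in null replicate 4. By raw counts, which favour long genes, the Nfib share was 34.4% ± 2.28.

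**Figure D2:**
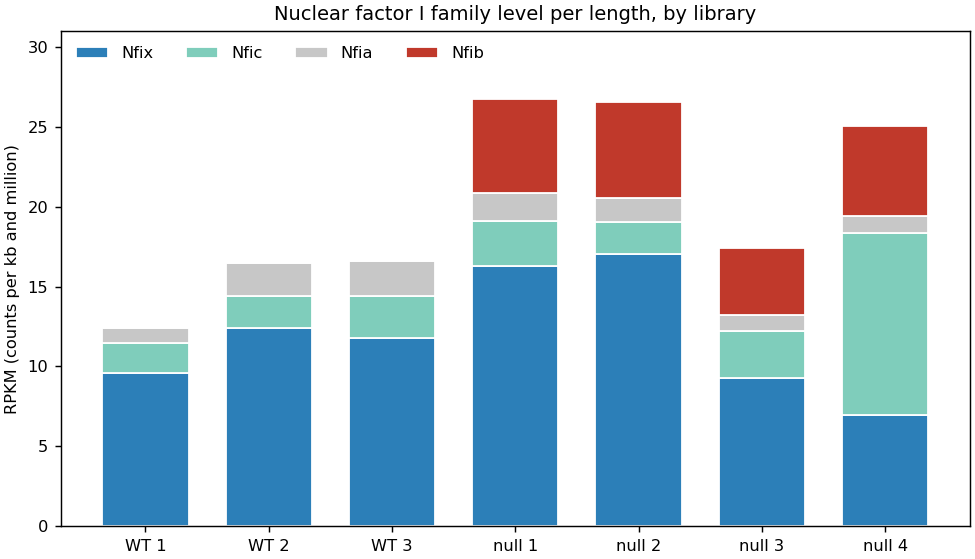
Stacked RPKM of the 4 NFI genes (vertical axis) in each of the 7 libraries. Nfix was the largest part in 6 libraries, Nfic in null replicate 4, and Nfib was between 4.19 and 5.97 RPKM in the null lines only.

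Among the null lines the family members varied to different degrees. The coefficient of variation (CV) of Nfib was 15.3%, where counting error alone gives 5.58% and the median of 4295 genes within 2-fold of its mean level was 16.7%. The CV of Nfia was 28.2%, against a median of 25.8% at its own level. Nfix (40.6%, above 87.6% of genes at its level) and Nfic (92.6%, above 95.3%) varied more than most genes of like level. From the lowest to the highest null line, CPM spanned 1.42-fold for Nfib, 1.78-fold for Nfia, 2.45-fold for Nfix and 5.67-fold for Nfic.

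Genes with 0 counts in every wild-type library and at least 1 CPM in every null library numbered 21 of 27179 (0.0773%), Nfib among them. The reverse pattern was found for 2 genes (0.00736%). Among these 21 genes Nfib had a lower mean CPM than only 3, the RNA-binding protein gene Elavl2 (99.5 CPM), Erdr1 (73.2 CPM) and the imprinted gene Peg12 (51.3 CPM). Nfib had the lowest CV of the 21, with Garem1 next at 18.7%, of which counting error gives 14.8%, and with Sox2 (160%) and Erdr1 (128%) at the other end. Both ends were named after their values were seen. The joint pattern of 0 in wild-type lines and at least 1 CPM in each null line was thus shared with few genes. Counts of 0 in every wild-type library alone were found for 11840 genes, of which 1543 had some count in a null library.

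**Figure D3:**
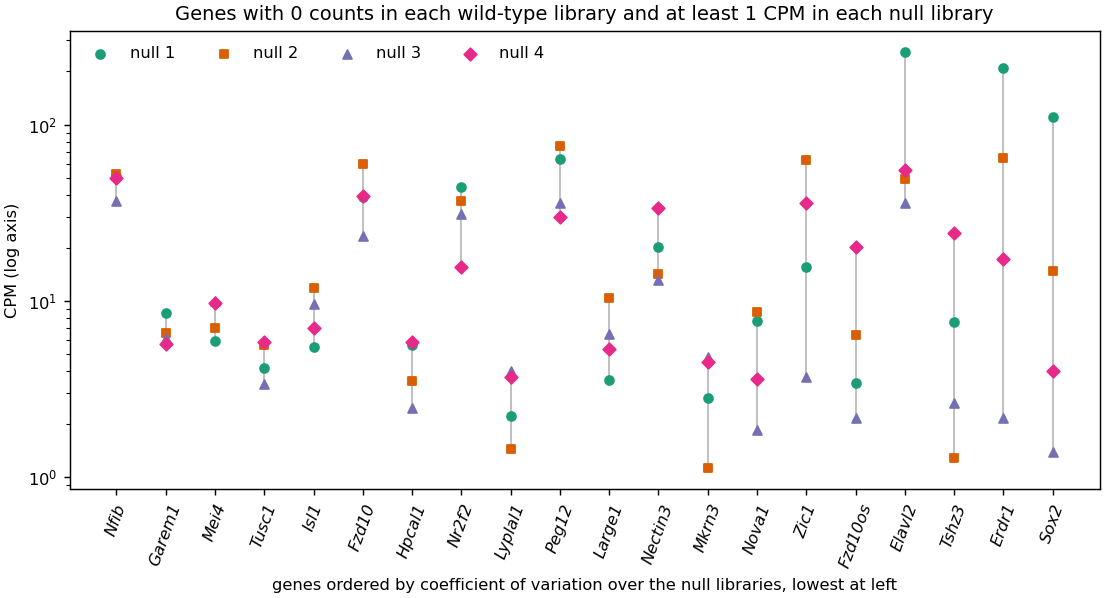
CPM in each null line (vertical axis, log scale) for genes with a symbol, 0 counts in every wild-type library and at least 1 CPM in every null library. Genes are ordered along the horizontal axis by CV among the null lines, lowest at left. Grey lines run from the lowest to the highest null line. Nfib had a mean of 47.5 CPM and the lowest CV, 15.3%.

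The genes whose pattern was most like that of Nfib, by Pearson correlation of log2(CPM + 0.5) over the 7 libraries, were Fzd10, a Wnt receptor gene (r = 0.997), Garem1 (0.997), Tusc1 (0.995), Peg12 (0.994), Nectin3, which encodes a cell adhesion molecule (0.991), and Mei4, a meiotic recombination gene (0.989). All 6 had 0 counts in the wild-type lines, as Nfib did. The libraries are the same for each pair, and r is given as a description. None of the 6 stayed among the top 6 by Spearman correlation, whereas 5 did with a pseudocount of 2. Among the paralogues, r with Nfib over the 7 libraries was 0.47 for Nfic, 0.08 for Nfix and -0.32 for Nfia. With Nfib at 0 counts in every wild-type line, r follows mainly the difference between the groups. The family was chosen on that difference, so no likeness or unlikeness is read from these values.

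The 23 genes of a list of known or proposed NFI targets in brain, muscle, bone, tooth and other tissues had any count about as often as genes at large. A smaller share of them passed the filter. 9 of them had 0 counts in all 7 libraries, as did 10297 of all 27179 genes. Of the 23, 7 were retained, against 12303 of the 27179. Of the 7, 0 were higher and 3 were lower in null lines, where 5.06% of all retained genes were higher and 6.85% lower (11.9% DE at an FDR under 0.05 in all). The median log2 fold change of the 7 was -0.46, against -0.0058 over all retained genes. Eno3, the muscle form of enolase, had 311, 961 and 1277 counts in wild-type replicates 1 to 3 and 25, 188, 87 and 162 in null replicates 1 to 4. Its groups did not overlap, and it fell by 3.62 on the log2 scale (SE 0.52, FDR 0.0109). Ckm, the muscle creatine kinase gene, had 4, 38 and 33 counts in wild-type and 2, 0, 8 and 0 in null replicates, a log2 fold change of -4.58 (SE 0.93, FDR 0.0231) at very low counts. Bbx, which encodes an HMG-box protein, fell without overlap, with 77.4 ± 9.64 CPM in the 3 wild-type lines and 44.1 ± 12.4 CPM (SD) in the 4 null lines, a log2 fold change of -0.89 (SE 0.13, FDR 0.0114). Efnb1, an ephrin gene, had 22, 1 and 0 counts in wild-type and 8, 7, 34 and 147 in null replicates, with a log2 fold change of 3.68 (FDR 0.0545) that missed the threshold. Ncam1, a neural adhesion gene, had at most 1 count in wild-type lines and 18, 0, 8 and 49 in null replicates (log2 fold change 2.78, FDR 0.181). Ezh2, the histone methyltransferase gene known to be repressed by Nfib in brain, measured 261 ± 6.15 CPM in wild-type and 300 ± 42.6 CPM in null lines (log2 fold change 0.22, FDR 0.192). Efnb1, Ncam1 and Ezh2 are named outside the rule for named genes.

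The 3 calls were sensitive to the handling of the libraries. The sample weights of wild-type replicates 2 and 3 were 3.78 and 3.06 against 0.246 to 1.60 for the other libraries. No target was DE with voom alone, with edgeR, with those 2 libraries summed into 1, or without either of them. DESeq2, which weights no samples, called Eno3 (FDR 5.63e-05) and Bbx (FDR 0.0476) but not Ckm (FDR 0.199). The call of Bbx was also lost without null replicate 2, where 1 of the 2 targets called was higher, and that of Ckm without null replicate 1 or 2. With 1 library left out, the log2 fold change of Eno3 ran from -4.10 to -3.09, that of Ckm from -5.20 to -3.27 and that of Bbx from -1.02 to -0.83.

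Of 13 regulators and partners of the family, 8 were retained, 1 was higher and 1 was lower in null lines, beside the 5.06% and 6.85% over all retained genes. Zic1, a zinc finger gene of the developing brain, had 0 counts in the wild-type lines and 105, 393, 24 and 271 in null replicates 1 to 4, at least 162-fold higher when pooled (FDR 0.0480). Like Nfib, Zic1 passed the filter only through its null lines, so its call carries little weight. Its counts spanned a much wider range among null lines than those of Nfib. Notch1, the receptor gene upstream of Nfia in astrocyte formation, measured 18.2, 47.9 and 41.2 CPM in wild-type and 17.3, 24.4, 19.6 and 49.2 CPM in null replicates, with a log2 fold change of -0.98 (SE 0.24, FDR 0.0385). The groups overlapped, with null replicate 4 the highest of all 7, and without sample weights the log2 fold change of Notch1 was -0.44. Sox2, a neural stem cell factor, had 0 counts in wild-type lines and 744, 92, 9 and 30 in null replicates 1 to 4, and did not pass the test (FDR 0.102). Sox9, which induces Nfia in glial precursors, had 98 counts in null replicate 4 and 0 elsewhere. Sox2 and Sox9 were chosen after their values were seen. No regulator was DE with voom alone, with edgeR or with wild-type replicates 2 and 3 summed. Zic1 lost its call without any 1 of the wild-type libraries, hence also within batch 2, and without null replicate 1 or 4 (log2 fold change 6.73 to 8.73). Notch1 lost its call without wild-type replicate 2 or 3 or null replicate 1, 2 or 3 (log2 fold change -1.05 to -0.38), and with DESeq2 (log2 fold change -0.38, FDR 0.858), whose 2 calls in the list were both higher.

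**Figure D4:**
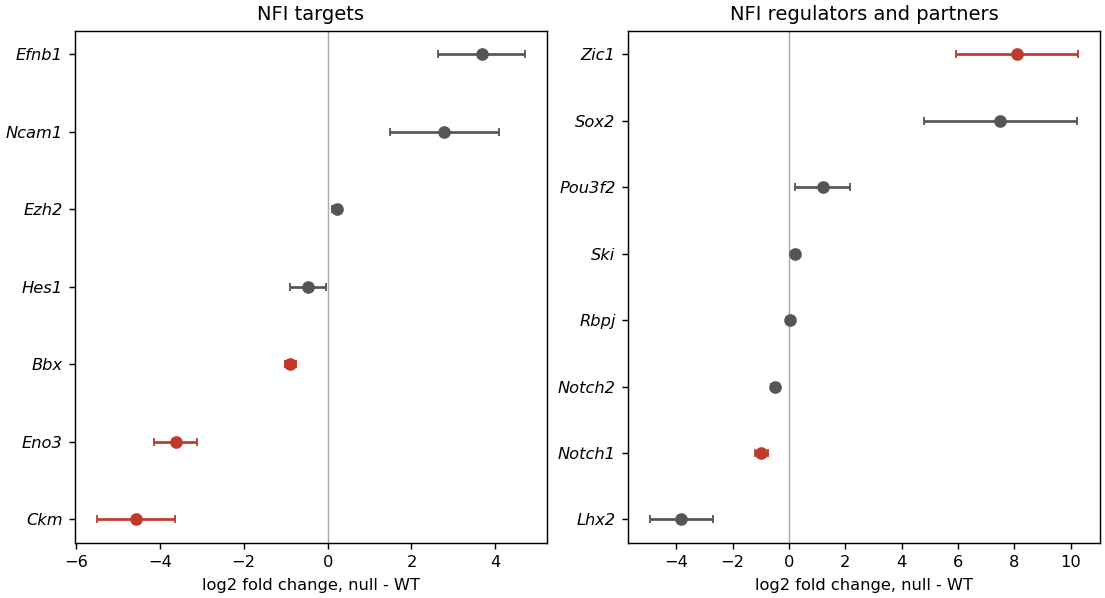
Log2 fold change, null minus wild-type, with SE from the voom fit with sample weights (horizontal axis), of the retained genes of the target list and the regulator and partner list. Genes in red were DE at an FDR under 0.05: Eno3, Ckm and Bbx among targets, Notch1 and Zic1 among regulators.

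The genes beside Nfib did not share its step from 0. Of its 10 nearest protein-coding neighbours, 5 on each side by gene start, 5 had 0 counts in all 7 libraries and 4 were retained. The median log2 fold change of these 4 was 0.41, against -0.0058 over all retained genes. Of the 4, 2 lay higher in every null line, as did 6.35% of all retained genes. The RefSeq locus 2310067E19Rik, which lies within the span of Nfib, had 0 counts in every library. Dmac1, a mitochondrial complex I assembly factor gene whose start lies 7013 kb from that of Nfib, measured 41.6, 37.4 and 39.6 CPM in wild-type and 59.4, 45.9, 56.5 and 53.6 CPM in null replicates (log2 fold change 0.44, SE 0.12, FDR 0.0478). Zdhhc21 was the nearest gene with reads in all libraries, with its start coordinate 509 kb from that of Nfib. It went from 59.0 ± 5.86 CPM to 73.6 ± 6.42 CPM without overlap and did not pass the test (log2 fold change 0.21, FDR 0.218). Zdhhc21 is named outside the rule for named genes. Mpdz, also named after its values were seen, had 26 counts in null replicate 4, 1 in wild-type replicate 1 and 0 elsewhere.

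No neighbour of Nfia or Nfic was DE. Beside Nfix, Lyl1, a helix-loop-helix factor gene of blood progenitors, had a mean of 49.6 ± 9.01 CPM over the 3 wild-type lines and of 81.7 ± 18.4 CPM (SD) over the 4 null lines (log2 fold change 0.74, SE 0.16, FDR 0.0252). Its annotated end, at 84704716, overlaps the first bases of the Nfix span, and reads there could not be assigned with certainty. Ier2, an immediate early gene, was at 24.3, 37.2 and 34.0 CPM in wild-type and 9.33, 11.1, 18.4 and 52.9 CPM in null replicates (log2 fold change -1.41, SE 0.30, FDR 0.0255), with null replicate 4 again the highest of all 7. Over the 40 neighbours, 25 were retained, of which 2 were higher and 1 was lower, with a median log2 fold change of 0.21, beside 5.06% higher, 6.85% lower and a median of -0.0058 over all retained genes. None of the neighbours was DE with voom alone, edgeR or DESeq2. Dmac1 lost its call when any 1 library was left out (log2 fold change 0.39 to 0.57). Lyl1 and Ier2 lost theirs without wild-type replicate 2 or 3 or null replicate 1 or 2, Lyl1 also without null replicate 3, with log2 fold changes of 0.70 to 0.98 for Lyl1 and negative values throughout, down to -1.60, for Ier2.

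**Figure D5:**
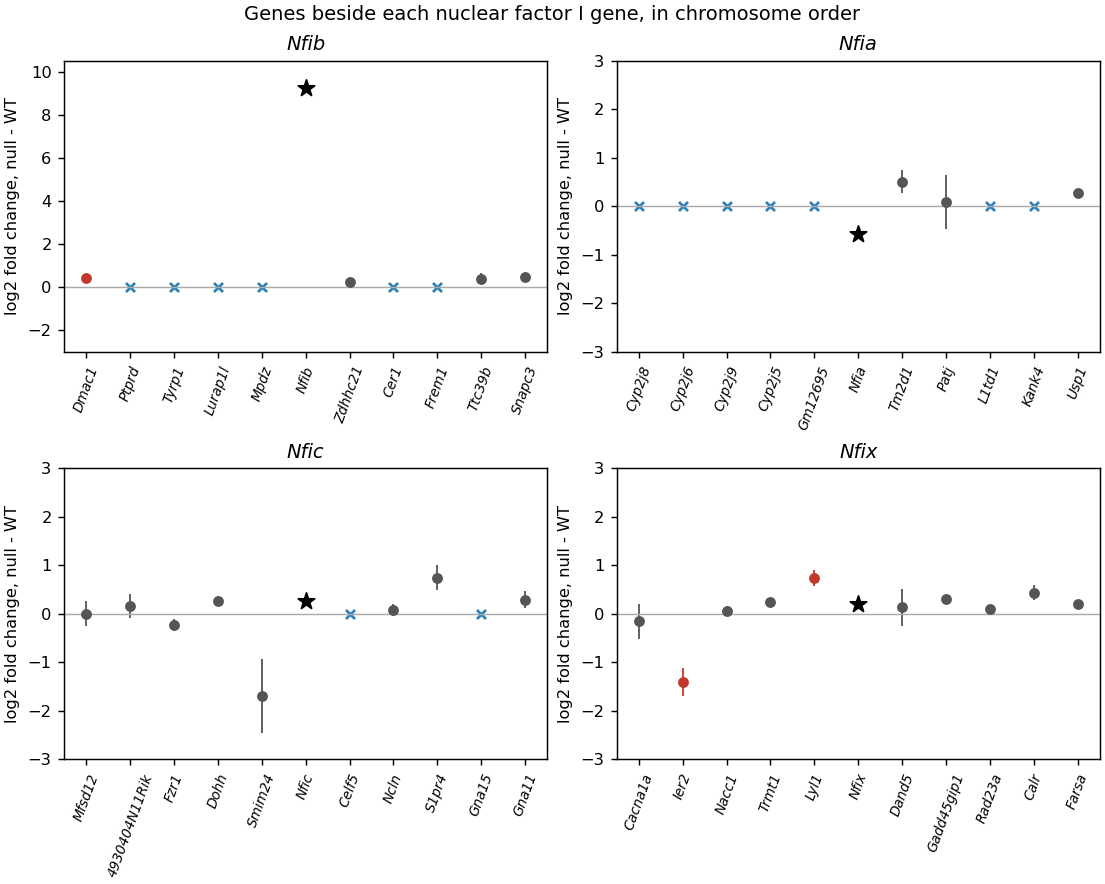
Log2 fold change, null minus wild-type (vertical axes; the Nfib panel has a wider range), of the 5 protein-coding genes on each side of each NFI gene in chromosome order, with SE bars. The star is the NFI gene, red points were DE at an FDR under 0.05, and blue crosses at 0 mark genes that were not retained and have no fold change. Beside Nfib, at 9.24, the retained neighbours had a median of 0.41, and Dmac1 was DE.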

How the data were processed

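Per the labels and the study's methods, total RNA from each line went into TruSeq library preparation and HiSeq sequencing. The authors aligned the reads to mm10 with Subread, summarised them per gene with featureCounts and deposited raw counts with gene lengths, 1 table per library. Neither the treatment of multi-mapping reads nor strand use was given in the sources used here. CPM and RPKM were computed from the counts, the total counts and the gene lengths. Symbols and coordinates came from RefSeq (GRCm38.p6) by Entrez identifier: 25275 of 27179 genes, holding 98.24% of counts, matched.

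The filter of the study, 0.5 CPM or more in at least 3 samples, kept 12303 genes. TMM normalisation and voomWithQualityWeights, with 1 variance factor per sample, were followed by lmFit and eBayes in limma 3.58.1 with edgeR 4.0.16 under R 4.3.3, over all 7 samples and with no covariate. Genes with a Benjamini-Hochberg FDR under 0.05 are called DE. The code was tested on simulated data. Alternatives were relative log expression, other filters, voom alone, edgeR's quasi-likelihood test, DESeq2 1.42.0, a replicate block, wild-type replicates 2 and 3 summed, and leaving out each library.

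The family and all lists were chosen with earlier results of these data known, and the lists of targets, regulators and markers were written from general knowledge. The rule named the 4 members, Smchd1, every DE gene of the target, regulator and neighbour lists and the 6 genes most correlated with Nfib, and other names are marked as such. The values of 1 marker gene are not reported here on their own. The 3-count floors, 0.399 to 0.827 CPM per library, and Poisson intervals cover counting error only, since reads without molecular identifiers are not independent molecules. Batch 1 held 1 wild-type library, and a comparison within it could not be made.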

Additional observations from a re-analysis of the deposited data

Results flagged for a closer look

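Of 31 values screened in the 4 null lines, 4 had a highest or lowest library that stood further from the others than Dixon's 95% limit. Chance gives about 1.55 (1 group in 20) for independent and normally distributed values, which these need not be. The wild-type group, with 3 libraries, was not screened. Nfic measured 71.9 CPM in null replicate 4, a gap of 0.901 of the range of the group. The summed epithelial markers measured 25.3 CPM in null replicate 4, of which Krt18 gave 188 counts. The summed fibroblast markers measured 0.266 CPM in null replicate 4, which is at the level of a few counts, and 0 in the other null lines. With the other lines tied at 0, any count passes the limit, so nothing is read from this flag. The summed neural and glial markers measured 256 CPM in null replicate 2, of which Tubb3 gave 1533 counts.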

How the results depend on the processing

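With sample weights 1466 genes were DE. There were 384 with DESeq2, 222 with the replicate block, 12 with edgeR, 12 with voom alone, 1 with wild-type replicates 2 and 3 summed, and 1 to 1683 when a library was left out (1 without wild-type replicate 2 or 3, 443 without null replicate 1 and 281 without null replicate 2). The 3 targets became 0 with edgeR (4 at an unadjusted p under 0.05), voom alone (3) and the summed libraries (3), and 0 to 3 when a library was left out. The 2 regulators became 4 with no filter, 0 with edgeR (3 at an unadjusted p under 0.05), voom alone (2) and the summed libraries (0), and 0 to 2 when a library was left out. The 3 neighbours became 0 with DESeq2 (4 at an unadjusted p under 0.05), edgeR (4), voom alone (4) and the summed libraries (1), and 0 to 2 when a library was left out. The block also ended the calls of Ckm (FDR 0.0865), Notch1 (0.0608) and Dmac1 (0.190). Replicate numbers did not pair the samples (correlations of same-numbered deviations -0.154, 0.224 and -0.206).

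The log2 fold change of Nfib was 10.43 with DESeq2, 11.21 with edgeR, 8.98 with voom alone and 8.84 to 9.34 when a library was left out. That of Nfix turned to -0.13 and -0.17 without null replicates 1 and 2, and its other values without 1 library reached 0.38. The Nfib share by counts was 34.4%, and Spearman ranking kept 0 of the 6 genes most like it. Smchd1 and Nfia kept their direction under all alternatives run, as did Nfic, and Smchd1 also its call. A tally of 12 results and 165 values took in the list of 6 genes most like Nfib and left out Nfib and Smchd1 themselves. In it, 94 kept their call or, where there was none, their direction or most of the list. Another 68 kept their direction but lost the call, 1 moved and 2 reversed. The 94 took in 15 values of Nfia, 15 of Nfic and 13 of Nfix, which had no call to lose, and some of these shifted widely. The log2 fold change of Nfic went from 0.27 to 1.14 with DESeq2, and that of Nfia from -0.57 to -0.06 without wild-type replicate 3. The 1 that moved was the Spearman ranking of the 6 genes. Outside the tally, the log2 fold change of Nfib moved in 5 settings and moved little in 9. The highest FDR of each called list gene over its alternatives was 0.662 to 0.967. A minimum of 10 counts in every sample gave no value for Nfib, Ckm or Zic1. The causes were not tested. At these depths a level below 0.399 to 0.827 CPM could not be seen.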
